A study of Mus musculus with 45 samples.

Results

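The genes of GABA synthesis, transport and chloride balance were followed through synaptic activity and excitotoxic NMDA receptor stimulation in mouse hippocampal primary neurons. They were taken from the count table by symbol, and all 8 were found among its 54532 genes: Gad1 and Gad2 (GABA synthesis), Slc32a1 (vesicular loading), Slc6a11 and Abat (uptake and breakdown), Slc12a2 and Slc12a5 (chloride import and export) and Gphn (gephyrin, the scaffold of inhibitory synapses). The cultures were prepared from newborn C57BL/6N pups and grown until day in vitro 8 in B27 and 1% rat serum. The antimitotic AraC was added on day in vitro 3. On day 8 the medium was changed to one of salts and glucose with insulin, transferrin and selenite. The labels give day 10 or 11 for the treatment, and the methods for RNA-seq give day 11. All 45 libraries of poly-A RNA came from 5 culture preparations, numbered 1, 3, 6, 7 and 8, each of which gave 1 library to each of 9 conditions. The control was left untreated. Bicuculline (Bic) at 50 µM, which blocks GABA type A receptors and thereby drives bursts of action potential (AP) firing, was given alone for 0.5, 1 or 2 h. In the short protocol (SP), 0.5 h of Bic came before 0.5 h of either tetrodotoxin (TTX) at 1 µM, a sodium channel blocker that silences firing, or TTX combined with 30 µM NMDA. In the long protocol (LP), 1 h of Bic came before 1 h of TTX, of TTX combined with NMDA, or of TBOA at 50 µM, an inhibitor of glutamate transporters under which glutamate spills over from synapses. According to the study's methods Bic stayed in the medium during every intervention, so that all conditions but the control had GABA type A receptors blocked at harvest. The differences between conditions are named after the protocol and the pair compared: passive for TTX against Bic of the same total duration, active for TTX/NMDA against TTX, total for TTX/NMDA against Bic, and spillover for TBOA against 2 h Bic. A gene is said to be called where its Benjamini-Hochberg adjusted p in edgeR's quasi-likelihood test of 5 against 5 libraries, adjusted over all genes with at least 1 read, was under 0.05. Bath-applied NMDA reaches receptors inside and outside synapses on all cells of the dish.

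GABA is made from glutamate by the glutamate decarboxylases GAD67 (Gad1), which is found throughout the cell, and GAD65 (Gad2), which is concentrated at terminals, and is loaded into synaptic vesicles by VGAT (Slc32a1). After release it is taken up by plasma membrane transporters, among them GAT-3 (Slc6a11), known mainly from astrocytes, and is broken down by GABA transaminase (Abat) in mitochondria. Whether an open GABA type A receptor inhibits a neuron depends on its chloride gradient, which is set by the chloride importer NKCC1 (Slc12a2), dominant in immature neurons, and the neuron-specific exporter KCC2 (Slc12a5), which rises as neurons mature, and gephyrin (Gphn) anchors the receptors opposite the terminals.

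Promoters of 4 of the genes called between TTX/NMDA and TTX in the unpaired test are shown, from RefSeq's promoter table (GRCm38.p6). They set 2 genes that were higher with NMDA, Gad1 and Slc32a1, beside 2 that were lower, Slc12a5 and Gphn. Each promoter is 300 bases long, from 250 bases before to 50 after the transcription start, on the plus strand. Capitals mark matches to activity-related motifs searched on both strands.
Gad1, chr2:70561879-70562178: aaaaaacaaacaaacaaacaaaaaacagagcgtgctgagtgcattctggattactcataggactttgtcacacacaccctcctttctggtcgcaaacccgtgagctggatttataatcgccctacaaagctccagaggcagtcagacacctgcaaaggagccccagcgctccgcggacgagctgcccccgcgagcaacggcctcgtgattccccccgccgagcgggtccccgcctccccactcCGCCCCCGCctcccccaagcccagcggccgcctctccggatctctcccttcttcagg
Slc32a1, chr2:158610508-158610807: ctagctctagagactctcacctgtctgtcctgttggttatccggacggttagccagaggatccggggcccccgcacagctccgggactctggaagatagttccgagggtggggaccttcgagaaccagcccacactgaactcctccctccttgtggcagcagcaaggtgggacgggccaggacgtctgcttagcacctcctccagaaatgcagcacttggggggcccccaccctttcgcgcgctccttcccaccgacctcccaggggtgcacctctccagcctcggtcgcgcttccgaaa
Slc12a5, chr2:164960596-164960895: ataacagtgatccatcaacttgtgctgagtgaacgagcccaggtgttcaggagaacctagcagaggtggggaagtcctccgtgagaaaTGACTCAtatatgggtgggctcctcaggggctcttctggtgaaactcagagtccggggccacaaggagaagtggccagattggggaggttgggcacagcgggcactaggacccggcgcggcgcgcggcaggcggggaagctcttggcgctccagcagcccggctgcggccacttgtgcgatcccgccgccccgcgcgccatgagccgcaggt
Gphn, chr12:78226405-78226704: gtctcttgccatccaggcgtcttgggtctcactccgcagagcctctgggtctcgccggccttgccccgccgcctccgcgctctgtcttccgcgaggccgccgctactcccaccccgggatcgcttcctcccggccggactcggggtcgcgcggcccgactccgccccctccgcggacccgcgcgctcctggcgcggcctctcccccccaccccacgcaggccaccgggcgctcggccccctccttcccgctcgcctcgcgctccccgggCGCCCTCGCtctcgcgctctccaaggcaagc
The letters searched were the cAMP response element TGACGTCA, its core TGACG, which the full element contains, the AP-1 site TGANTCA and the EGR site GCGNGGGCG. Over all 32851 promoters of the table, 1.79% held the full element, 20.8% the core, 7.81% the AP-1 site and 5.55% the EGR site. The 7 promoters examined for Gad1, Gad2, Slc32a1, Slc6a11, Slc12a5 (which has 2) and Gphn held the full element in 0 cases. An EGR site lay on the minus strand at the start of Gad1, from position -7, and 20 bases into Gphn, and an AP-1 site lay at position -162 of Slc12a5, while the Slc32a1 window held none of the 4 motifs. The core occurred once, at position -33 of Gad2. The share of G and C was 60% for Gad1, 63.3% for Slc32a1, 63.7% for Slc12a5 and 77% for Gphn.

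The libraries held 11316580 to 81129276 counts on genes (median 26239614), and the 8 genes were well covered, from 450 reads of Slc12a2 to 84540 of Gad1 in a single library. The labels were checked with 8 activity-induced genes, all of which were higher after 2 h Bic than in the control, Fos by 5.39 ± 0.13 on the log2 scale (± SE; edgeR adjusted p = 1.23e-26). Interneuron markers were present in every library (Sst 216 to 556 CPM, reads scaled to 1e+06 per library), as were those of excitatory neurons (Slc17a7 447 to 1178 CPM) and astrocytes (Gfap 154 to 665 CPM). The cultures were therefore mixtures, and in such bulk RNA fewer cells of a type and less RNA per cell cannot be told apart. Microglial and vessel markers were near the detection limit, with P2ry12 at 0 in 6 and Cldn5 at 0 in 27 of the 45 libraries.

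Per kilobase of exon, the synthesis and loading genes had the highest levels of the 8. Gad1 averaged 125 ± 21.7 RPKM (CPM divided by exon length in kilobases, ± SD over 45 libraries), Slc32a1 102 ± 16.6, Gad2 65.3 ± 12.7 and Slc12a5 59.5 ± 7.85 RPKM. Abat followed with 35.8 ± 4.24, Slc6a11 with 28.7 ± 3.9, Gphn with 26.7 ± 2.26 and Slc12a2 with 4.64 ± 0.772 RPKM. The exporter transcript stood above the importer transcript in all 45 libraries. The 8 genes are protein-coding and on the plus strand, and on GRCm38 (GENCODE M21) Gad1 spans chr2:70553072-70602014, Gad2 chr2:22622205-22693874, Slc32a1 chr2:158610767-158615748, Slc12a5 chr2:164960802-164999731, Slc6a11 chr6:114131241-114249952, Gphn chr12:78226379-78684772, Abat chr16:8513429-8621568 and Slc12a2 chr18:57878678-57946821. None of their exons overlaps an exon of another gene on the same strand (0% of bases), so the counting, which dropped reads shared by several genes, took no reads from them for that reason. The RefSeq starts used for the Gad1, Gad2, Slc12a5 and Gphn promoters lie inside the GENCODE spans of these genes. The windows shown for Gad1 and Gphn lie wholly inside. No promoter of Abat or Slc12a2 was examined, although Slc12a2 was also called between TTX/NMDA and TTX.

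**Figure D1:**
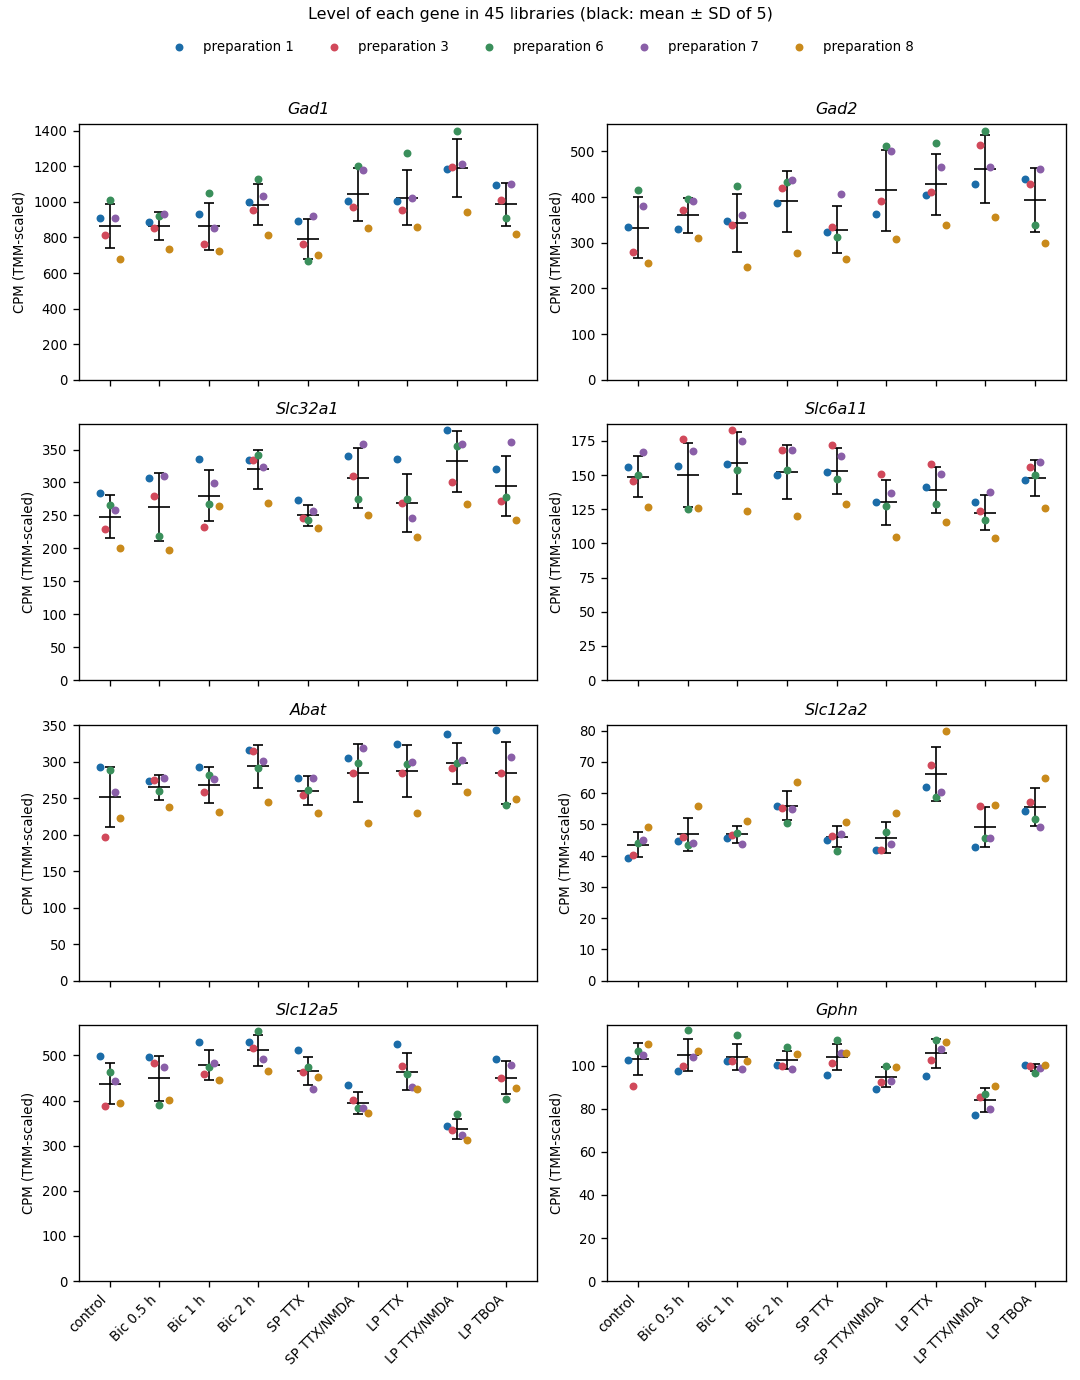
Level of each of the 8 genes in all 45 libraries, in CPM scaled by TMM (vertical axes from 0), by condition along the horizontal axis. Coloured points are single libraries, 1 colour per culture preparation, and black bars are the mean and SD of 5 libraries. Slc12a5 and Gphn are lowest in LP TTX/NMDA (337 and 84.0 CPM), Gad1, Gad2 and Slc32a1 are highest there, and Slc12a2 is highest in LP TTX (66.0 CPM).

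Of the genes of GABA synthesis, Gad1 had its lowest mean in SP TTX, 789.7 ± 113 CPM (SD, n = 5), and its highest in LP TTX/NMDA, 1189 ± 164 CPM, a 1.51-fold span. In the control, Gad1 stood at 908, 814, 1008, 908 and 677 CPM in preparations 1, 3, 6, 7 and 8, and in LP TTX/NMDA at 1186, 1198, 1402, 1215 and 942 CPM. The spread between preparations was wide: preparation 6 was the highest and preparation 8 the lowest in both conditions, and neighbours in the order of condition means differed by less than the larger of their SDs in 7 of 8 steps. The exception was the step from 0.5 h Bic (865 ± 78.9 CPM) to 2 h Bic (985 ± 114 CPM). Gad2 ran from 328 ± 51.5 CPM in SP TTX to 462 ± 74.4 CPM in LP TTX/NMDA, and no step between neighbours exceeded the spread. Its libraries stood at 335, 279.6, 416, 380.1 and 255 CPM in the control and at 429, 515, 545, 466 and 356 CPM in LP TTX/NMDA, higher in each preparation but overlapping as groups. Gad1 stood at 2.01 ± 0.165 times Gad2 per exon length in the control and at 1.99 ± 0.123 times in LP TTX/NMDA (mean ± SD of 5 libraries).

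Slc32a1, the vesicular transporter, was lowest in the control, 248 ± 32.6 CPM, and highest in LP TTX/NMDA, 332 ± 46.1 CPM, with 2 h Bic next at 320.3 ± 29.5 CPM. Its 2 h Bic libraries were at 333, 334, 342, 324 and 269 CPM, in preparations 1, 3, 6, 7 and 8, against 284, 230.1, 266, 259 and 201 CPM in the control. Every preparation was higher after 2 h Bic than in its own control, although the 2 h value of preparation 8 lay inside the control range. Slc32a1 had no step between neighbouring condition means beyond the spread.

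Slc6a11, the astrocytic GABA transporter, was lowest in LP TTX/NMDA, 123 ± 12.8 CPM, followed by SP TTX/NMDA with 130.0 ± 16.6 CPM, and highest after 1 h Bic, 159 ± 22.9 CPM. In LP TTX/NMDA it stood at 131, 124, 117, 137 and 104 CPM in preparations 1, 3, 6, 7 and 8, and in 2 h Bic at 149.9, 169, 154, 168 and 119.8 CPM. Each preparation was lower with TTX/NMDA, but preparation 8 was so low throughout that the conditions overlapped. Abat, which degrades GABA, varied least of the synthesis, uptake and breakdown genes, from 252 ± 41.4 CPM in the control to 298 ± 28.2 CPM in LP TTX/NMDA. Its libraries were at 292, 198, 289, 258 and 223 CPM in the control and between 259 and 338 CPM in LP TTX/NMDA. It was called in 0 of the 10 comparisons between conditions.

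Slc12a5, the chloride exporter, was highest after 2 h Bic, 512 ± 34.6 CPM, and lowest in LP TTX/NMDA, 337 ± 21.8 CPM. The LP TTX/NMDA libraries were at 344, 335, 371, 324 and 313 CPM in preparations 1, 3, 6, 7 and 8, the LP TTX libraries at 526, 477, 459, 429 and 426 CPM and the 2 h Bic libraries at 531, 517, 554, 492 and 465 CPM. All 5 LP TTX/NMDA libraries lay below every library of LP TTX and of 2 h Bic. In the SP the TTX/NMDA libraries stood at 434, 400.3, 385, 384 and 372 CPM and those of 1 h Bic at 531, 459.9, 475, 483 and 445 CPM, without overlap, while SP TTX (511, 463, 473, 426 and 451 CPM) overlapped with both. The step from LP TTX/NMDA to SP TTX/NMDA (395 ± 23.9 CPM), the next lowest condition, was the only step beyond the spread for this gene.

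Slc12a2, the chloride importer, was lowest in the control, 43.5 ± 4.01 CPM, and highest in LP TTX, 66.0 ± 8.61 CPM. The control libraries stood at 39.2, 40.1, 43.9, 44.9 and 49.2 CPM, the 2 h Bic libraries at 56.0, 55.2, 50.6, 54.8 and 63.7 CPM and the LP TTX libraries at 62.0, 68.9, 58.9, 60.5 and 79.8 CPM, in preparations 1, 3, 6, 7 and 8. The 2 h Bic libraries all lay above the control libraries, the step from 2 h Bic to LP TTX exceeded the larger SD, and preparation 8 was the highest in each of the 3 conditions. In LP TTX/NMDA the values were 42.7, 55.8, 45.7, 45.5 and 56.2 CPM, all below those of LP TTX.

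Gphn was the most even of the 8 genes, with a median coefficient of variation within conditions of 5.87%. It stood between 99.3 and 106 CPM in the 7 conditions without NMDA, at 94.7 ± 4.6 CPM in SP TTX/NMDA and at 84.0 ± 5.46 CPM in LP TTX/NMDA. The LP TTX/NMDA libraries were at 77.1, 85.6, 87.0, 79.9 and 90.6 CPM and the LP TTX libraries at 95.5, 102, 112, 108 and 111 CPM, in preparations 1, 3, 6, 7 and 8. These ranges did not overlap, and the step from LP TTX/NMDA to SP TTX/NMDA was the only one between neighbouring conditions beyond the spread.

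The preparations themselves differed. Preparation 8 had the lowest mean over the 9 conditions for 6 of the 8 genes, with 295 CPM of Gad2 against 433 CPM in preparation 6, and the highest for Slc12a2 (58.4 CPM). The summed level of 28 interneuron markers was also lowest in preparation 8, at 1829 CPM against 2141 to 2171 CPM in the others, as was that of 12 astrocyte markers (1439 against 1538 to 1943 CPM). The part of these markers in the level of preparation 8 was not tested. Without preparation 8, the unpaired test called 2 of the 8 genes after 2 h Bic (2 with it), 4 in the SP active (3 with it), 5 in the LP active (4 with it) and 6 in the LP total comparison (4 with it). The number called over all genes changed as well. After 2 h Bic it was 2636 of 30275 without preparation 8 and 2789 of 30929 with it. In the SP active it was 1828 of 31052 against 1379 of 32229. In the LP active it was 7828 of 32023 against 7668 of 32852, and in the LP total 7808 of 31429 against 7361 of 32243. As the preparations run through all conditions, a second fit of each comparison took the preparation as a block over genes that passed edgeR's low-count filter (the paired fit), and its values are given where they change a call.

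**Figure D2:**
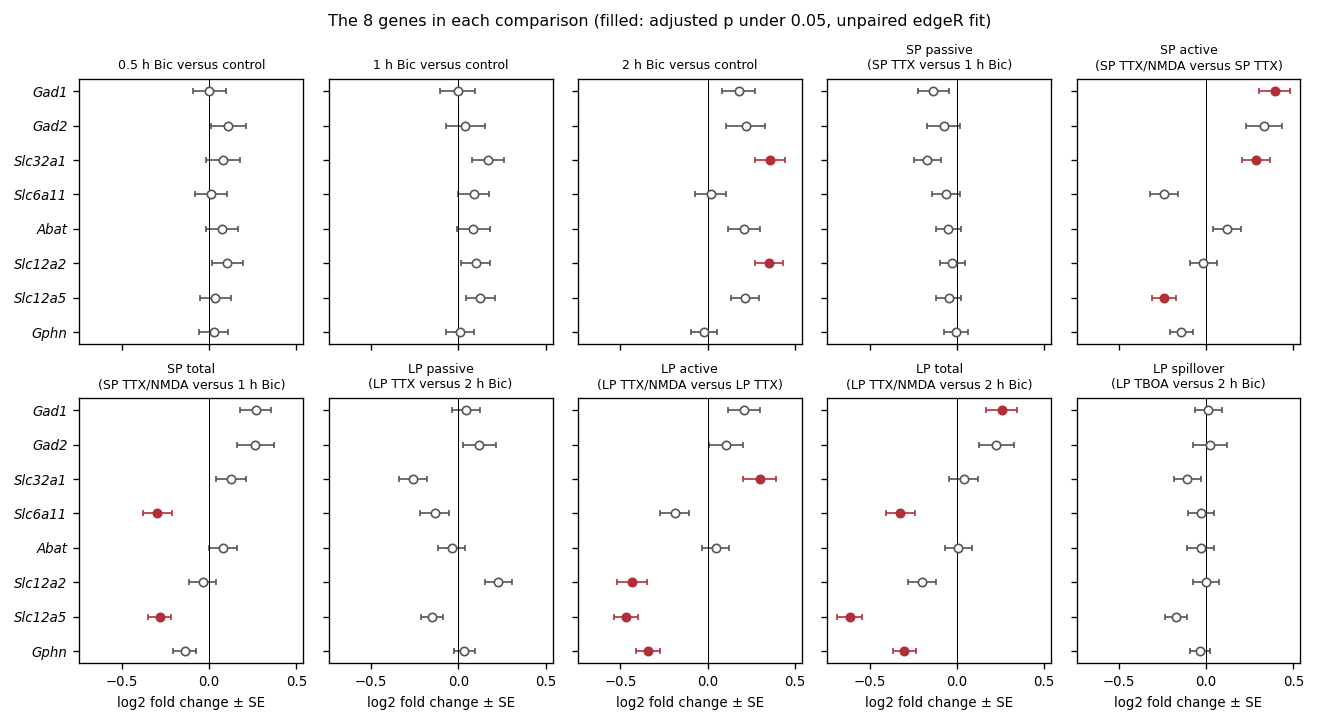
Log2 fold change of each gene in the 10 comparisons between conditions, horizontally, with bars of 1 SE from the unpaired edgeR fit of 5 against 5 libraries. Filled red points passed an adjusted p of 0.05 and open points did not. Slc12a5 reaches -0.61 in LP total, while no point is filled in 0.5 h Bic, 1 h Bic, SP passive, LP passive and LP spillover.

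Slc32a1 and Slc12a2 rose with 2 h of Bic-induced firing. After 2 h Bic, Slc32a1 was 30.0 ± 10.4% higher than in the control (mean ± SD of the change within 5 preparations), a log2 fold change of 0.36 ± 0.09 (± SE; edgeR quasi-likelihood test, adjusted p = 0.00479), and Slc12a2 was 29.5 ± 11.2% higher (0.35 ± 0.08, edgeR adjusted p = 0.00273). Both were higher in 5 of 5 preparations. These were 2 of 8 genes called, in a comparison in which 4.24% of 30929 genes were called higher and 4.78% lower. In the paired fit 29.3% of 15269 genes were called, and 5 of the 8 were, all higher: Gad1 (0.19 ± 0.05 on the log2 scale, edgeR adjusted p = 0.0113), Gad2 (0.23 ± 0.07, 0.0261) and Slc12a5 (0.22 ± 0.06, 0.00918) joined the 2 above. Gphn had a log2 fold change of -0.02 ± 0.07 with 2 of 5 preparations higher, Slc6a11 of 0.02 ± 0.09 with 3 of 5, and Abat, higher in 5 of 5, of 0.21 ± 0.09 (edgeR adjusted p = 0.208, and 0.0513 in the paired fit).

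The shorter Bic treatments called none of the 8 genes. After 0.5 h the log2 fold changes lay between 0.00258 (Gad1) and 0.11 (Gad2), with 0 of the 8 at an unadjusted p under 0.05 and 0 called by DESeq2, while 0.289% of 30133 genes were called higher and 0% lower (464 were lower at an unadjusted p under 0.05, and DESeq2 called 1). After 1 h they lay between -0.00351 (Gad1) and 0.17 (Slc32a1), again with 0 of 8 at an unadjusted p under 0.05 and 0 called by DESeq2, where 0.965% of all genes were called higher and 0.195% lower. Slc32a1 and Slc12a5 were already higher than in the control in 5 of 5 preparations at 1 h, with log2 fold changes of 0.17 ± 0.09 and 0.13 ± 0.08, which the test did not call (edgeR adjusted p = 0.658 and 0.658).

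Interneuron genes were higher at 2 h as well. Of 28 interneuron markers, 11 were called higher and 0 lower after 2 h Bic (median log2 fold change 0.23, against -0.01 over all genes tested), among them Sp9 (0.86 ± 0.11), Crh (1.73 ± 0.23) and Dlx2 (0.66 ± 0.12), of which Sp9 and Dlx2 encode transcription factors of the interneuron lineage and Crh a peptide. Crh was a low gene, with a mean of 0.713 CPM in the control and 1.28 CPM over all libraries. The summed level of the markers was 1802 ± 134 CPM in the control and 2268 ± 251 CPM after 2 h Bic. Relative to that sum, Slc32a1 changed by 3.5 ± 7.25% (4 of 5 preparations higher), Gad1 by -8.41 ± 8.23% (4 of 5 lower) and Gad2 by -5.99 ± 6.62% (4 of 5 lower). Among 16 other genes of GABA transport and breakdown, 2 were called higher and 0 lower, the amino acid transporter gene Slc38a2 (0.42 ± 0.09, edgeR adjusted p = 6.55e-04) and Pdxk, which makes the cofactor of the decarboxylases (0.30 ± 0.08, 0.0139). Of 24 genes of chloride cotransporters, channels and their kinases 1 was called higher and 0 lower. Among the 13592 genes with a mean of at least 1 CPM, 1112 were called higher and 1416 lower. Of 33 inhibitory postsynapse genes 3 were called higher and 2 lower, the latter Nlgn3 (-0.60 ± 0.08, 1.83e-06) and Slitrk3 (-0.35 ± 0.08, 0.00344), which encode synaptic adhesion proteins.

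The passive component, the difference between TTX and uninterrupted AP firing, was small in the SP. None of the 8 genes was called (1 at an unadjusted p under 0.05, Slc32a1, and 0 called by DESeq2), and the log2 fold changes ran from -0.17 (Slc32a1) to -0.00418 (Gphn), with 0.0157% of all genes called higher and 0.252% lower. In the LP, 0 of 8 were called in the unpaired fit (3 at an unadjusted p under 0.05, and 0 by DESeq2), where 3.03% of all genes were called higher and 1.62% lower. The paired fit, which called 32% of 15570 genes, called 4: Slc12a2 was higher with TTX by 17.5 ± 7.31% (0.22 ± 0.04 on the log2 scale, edgeR adjusted p = 0.00122), and Slc32a1 (-0.28 ± 0.05, 3.07e-04), Slc12a5 (-0.16 ± 0.04, 0.00581) and Slc6a11 (-0.14 ± 0.04, 0.0105) were lower. Slc12a2 stood above its 2 h Bic level in 5 of 5 preparations after firing was blocked, while Slc32a1, which had also risen with Bic, stood below it in 4 of 5. Of the 28 interneuron markers 0 were called higher and 2 lower in the unpaired fit, and of the 24 chloride genes 1 higher and 2 lower.

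The active component, the difference between TTX/NMDA and TTX, was a rise of Gad1 and Slc32a1 and a fall of the exporter gene in the SP. Gad1 was 33.8 ± 26.3% higher with NMDA (0.39 ± 0.09 on the log2 scale, edgeR adjusted p = 0.00555), Slc32a1 was 22.3 ± 12.2% higher (0.29 ± 0.08, 0.0273), and Slc12a5 changed by -15.0 ± 3.47% (-0.24 ± 0.07, 0.0301), each in the same direction in 5 of 5 preparations. Over all genes, 0.956% were called higher and 3.32% lower. In SP TTX, Gad1 stood at 893, 761, 669, 922 and 703 CPM in preparations 1, 3, 6, 7 and 8, and in SP TTX/NMDA at 1003, 972, 1200.3, 1181 and 852 CPM, so that preparation 6 moved from the lowest to the highest of the 5. Without preparation 6 the log2 fold change of Gad1 was 0.28, and it was still called. In the paired fit, which called 16.2% of 15705 genes, Gad2 was also higher (0.33 ± 0.08, edgeR adjusted p = 0.017) and Slc6a11 lower (-0.23 ± 0.04, 0.00515). The unpaired calls of Slc32a1 and Slc12a5 depended on single preparations: Slc32a1 had an edgeR adjusted p of 0.0546, 0.0796 and 0.139 without preparation 1, 3 and 7, and Slc12a5 of 0.0844, 0.0584 and 0.0673 without preparation 1, 3 and 6.

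In the LP the active component was a fall of 3 genes, which act in chloride transport and at the inhibitory postsynapse, and a rise of Slc32a1. Slc12a5 changed by -27.0 ± 5.75% (-0.47 ± 0.07 on the log2 scale, edgeR adjusted p = 5.72e-06), Slc12a2 by -25.4 ± 4.96% (-0.43 ± 0.09, 3.09e-04) and Gphn by -20.4 ± 3.66% (-0.34 ± 0.07, 3.25e-04), all lower in 5 of 5 preparations and without overlap between LP TTX and LP TTX/NMDA. Slc32a1 was 24.4 ± 13.7% higher (0.30 ± 0.09, edgeR adjusted p = 0.0188), a call that was lost without preparation 6 (0.0758) or 7 (0.078). The comparison as a whole was broad, with 11.6% of 32852 genes called higher and 11.8% lower, and among the 13592 genes with a mean of at least 1 CPM, 2719 higher and 3654 lower. The paired fit called 62.1% of 16399 genes and 7 of the 8, adding Gad1 (0.24 ± 0.04, edgeR adjusted p = 1.78e-04) and Gad2 (0.13 ± 0.05, 0.0249) upward and Slc6a11 (-0.16 ± 0.05, 0.00667) downward, so that Abat alone was not called (0.07 ± 0.04, 0.136).

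Against uninterrupted firing, the total difference of TTX/NMDA left Slc12a5 lower in both protocols. In the LP it changed by -34.1 ± 1.14% against 2 h Bic (-0.61 ± 0.07 on the log2 scale, edgeR adjusted p = 1.78e-08), the largest of the 8 changes there. Gphn (-0.30 ± 0.07, 8.26e-04) and Slc6a11 (-0.32 ± 0.08, 0.00357) were lower too, Gad1 was higher (0.26 ± 0.09, 0.0295), and 11.7% of all genes were called higher and 11.1% lower. Slc32a1, at 0.04 ± 0.08, ended near its 2 h Bic level. In the paired fit (56.6% of 15947 genes called) Gad2 was also higher (0.26 ± 0.05, edgeR adjusted p = 8.98e-04) and Slc12a2 lower (-0.18 ± 0.06, 0.0203). In the SP, Slc12a5 changed by -17.4 ± 2.96% against 1 h Bic (-0.28 ± 0.07, edgeR adjusted p = 0.00642), with no overlap of the libraries, and Slc6a11 by -18.0 ± 2.38% (-0.30 ± 0.08, 0.0323; 0.0975 without preparation 1), where 0.891% of all genes were called higher and 3.41% lower. The paired fit of the SP total (27.3% of 15435 genes called) added Gad1 (0.26 ± 0.05, edgeR adjusted p = 0.00165) and Gad2 (0.25 ± 0.05, 0.00209) upward and Gphn (-0.14 ± 0.04, 0.0218) downward; when the paired fit kept low-count genes, Gphn was not called (0.0502) and Slc32a1 was (0.0468). The total and active differences of a protocol share the TTX/NMDA libraries, and the passive and total differences the Bic libraries. The passive and active differences share the TTX libraries with opposite sign, so they are not independent of each other.

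Whether the active component differed between the protocols was tested directly, as the LP effect minus the SP effect. Without the block 0 of 8 genes were called (2 at an unadjusted p under 0.05, and 1 by DESeq2), with 0.722% of all genes called higher and 1.85% lower. The largest difference was that of Slc12a2, with a log2 fold change of -0.02 ± 0.08 for the SP active and -0.43 ± 0.09 for the LP active comparison, and a difference of -0.40 ± 0.12 (edgeR adjusted p = 0.0734). The paired fit, which called 25% of 16663 genes, called this difference (-0.41 ± 0.08, edgeR adjusted p = 0.0013) and those of Slc12a5 (-0.22 ± 0.06, 0.0173) and Gphn (-0.19 ± 0.05, 0.00584), all more negative in the LP. When the paired fit kept low-count genes, Gphn was not called (0.101) and Gad2 was (0.025). For Gad1, whose rise with NMDA had the larger estimate in the SP, the difference was -0.17 ± 0.14 (edgeR adjusted p = 0.701) and was not called by either fit. For the passive component the unpaired fit called 0 of 8 (1 at an unadjusted p under 0.05, and 0 by DESeq2), with 0.187% of all genes higher and 0.0699% lower, and the paired fit (2.01% of 16039 genes called) called Slc12a2 alone (0.25 ± 0.07, edgeR adjusted p = 0.0485). The SP and LP differ both in the length of firing and in the length of the intervention, which cannot be told apart here.

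Glutamate spillover in the presence of TBOA called none of the 8 genes against 2 h Bic (1 at an unadjusted p under 0.05, Slc12a5, and 0 by DESeq2), where 0.0536% of 31706 genes were called higher and 0.549% lower. Slc12a5 had the largest estimate, -0.17 ± 0.06 on the log2 scale (edgeR adjusted p = 0.399), and was lower in 5 of 5 preparations, by values that averaged -11.6 ± 9.56%. Its libraries stood at 493, 449, 403, 479.6 and 429 CPM in preparations 1, 3, 6, 7 and 8, and 3 of the 5 lay below the lowest 2 h Bic library. The other 7 genes had log2 fold changes between -0.11 (Slc32a1) and 0.02 (Gad2).

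The balance of exporter to importer was read within each library, which removes the library scaling. Per exon length, Slc12a5 stood at 14.9 ± 2.49 times Slc12a2 in the control, 13.5 ± 1.92 times after 2 h Bic, 10.5 ± 1.72 times in LP TTX and 10.2 ± 1.7 times in LP TTX/NMDA (mean ± SD, n = 5). In preparations 1, 3, 6, 7 and 8 it was 18.6, 14.2, 15.5, 14.5 and 11.8 in the control and 12.5, 10.2, 11.4, 10.4 and 7.83 in LP TTX. Within preparations the ratio changed by -22.6 ± 7.42% from 2 h Bic to LP TTX (lower in 5 of 5) and by -1.93 ± 7.39% from LP TTX to LP TTX/NMDA (lower in 2 of 5). The mean ratio was near its LP TTX/NMDA value with TTX alone, where the importer was high, and with NMDA both transcripts were lower. In the SP it changed by -0.846 ± 11.2% with TTX (lower in 2 of 5) and by -13.5 ± 11.4% with NMDA added (lower in 5 of 5). The ranges of the 5 libraries overlapped in each of these comparisons.

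**Figure D3:**
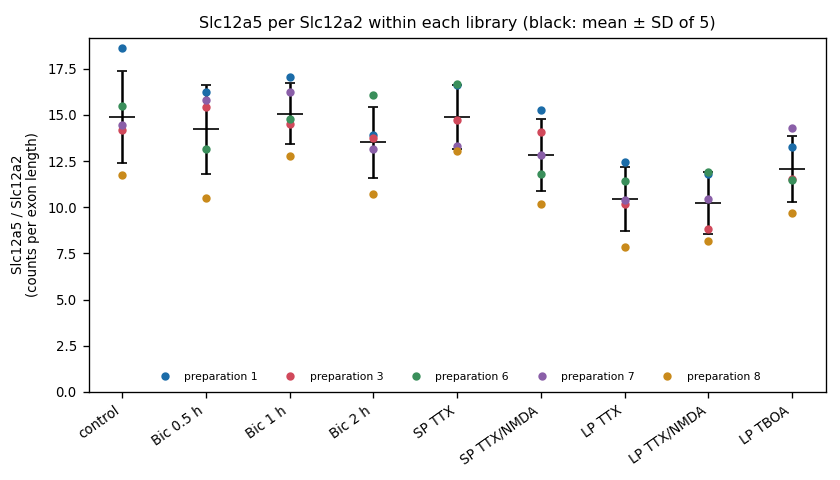
Ratio of Slc12a5 to Slc12a2 counts, each divided by its exon length, in every library (vertical axis from 0) by condition. Points are coloured by culture preparation and black bars show the mean and SD of 5 libraries. LP TTX and LP TTX/NMDA have the lowest means (10.5 and 10.2), and preparation 8 is the lowest in each condition.

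Among the other genes of inhibitory transmission, more were called lower than higher in the LP active component. Of 33 inhibitory postsynapse genes, 14 were called lower and 3 higher (median log2 fold change -0.14, against 0.11 over all genes tested and -0.01 over those with a mean of at least 1 CPM), the lower ones including Nsf, the fusion ATPase that also binds GABA type A receptor partners (-0.73 ± 0.07, edgeR adjusted p = 1.06e-09), the adhesion regulator gene Mdga1 (-1.14 ± 0.11, 6.47e-09) and Slitrk3 (-0.71 ± 0.07, 1.09e-08). Of 9 genes of GABA type B receptors and their auxiliaries, 7 were lower and 0 higher (median -0.61), with the potassium channel subunit gene Kcnj6 at -1.18 ± 0.10 (edgeR adjusted p = 2.89e-10) and the auxiliary subunit gene Kctd16 at -1.37 ± 0.13 (1.20e-09).

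The other genes of chloride transport and of GABA transport were called in both directions, as were the 13592 genes with a mean of at least 1 CPM (3654 lower and 2719 higher). Of the 24 chloride genes, 9 were lower and 5 higher (median -0.10), the lower ones including the bicarbonate transporter genes Slc4a8 (-0.62 ± 0.07, edgeR adjusted p = 5.23e-08) and Slc4a10 (-0.75 ± 0.11, 8.65e-06), and Wnk3, a kinase that controls both cotransporters (-0.62 ± 0.08, 7.09e-07). Of the 16 genes of GABA transport and breakdown, 6 were lower and 6 higher, the former including the glutamate transporter gene Slc1a1 (-0.55 ± 0.07, 1.97e-07), which takes up glutamate into neurons, and the latter Glul, the glutamine synthetase of astrocytes (0.74 ± 0.15, 2.99e-04). In the SP active component, where 1061 of those 13592 genes were lower and 235 higher, 7 of 33 postsynapse genes were lower and 1 higher, 5 of 9 GABA type B genes lower, 3 of 24 chloride genes lower, and 1 of 16 GABA transport genes higher.

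**Figure D4:**
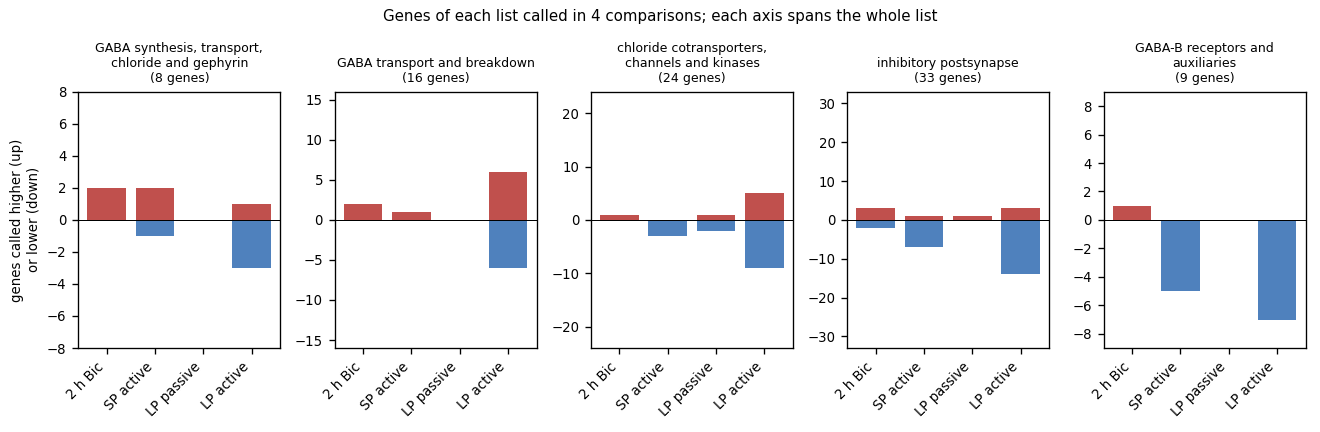
Number of genes called higher (red, upward) and lower (blue, downward) in each of 5 gene lists (panels) in 4 comparisons (horizontal axis), from the unpaired edgeR fit. The vertical axis of each panel spans the number of genes in its list, so the height is a share of the list. In LP active, 14 of 33 inhibitory postsynapse genes and 7 of 9 GABA type B genes are lower.

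Markers of cell types moved with the same comparisons. Among the 13592 genes with a mean of at least 1 CPM, 2719 were called higher and 3654 lower in the LP active component. In the SP active component 235 were called higher and 1061 lower. The summed level of 14 excitatory neuron markers was 3353 ± 237 CPM in LP TTX and 2136 ± 252 CPM in LP TTX/NMDA, with 10 of 14 called lower and 0 higher, the lowest p belonging to Camk2a (-1.13 ± 0.09). The interneuron markers summed to 2146 ± 206 and 2513 ± 235 CPM, with 12 of 28 higher and 1 lower, and the 12 astrocyte markers to 1587 ± 258 and 2121 ± 464 CPM, with 10 higher and 1 lower. The 15 markers of other glia and vessels stood at 149.7 ± 30.4 and 254 ± 70.4 CPM, with 7 higher and 0 lower. In the SP active component 7 of 14 excitatory markers were lower, 11 of 28 interneuron markers were higher and 1 lower, and 0 of 12 astrocyte markers were higher and 1 lower. The part of these shifts in the changes of the 8 genes was not tested.

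Relative to these sums the genes divided. In the LP active component Gad1 changed by -0.625 ± 3.65% relative to the interneuron sum (lower in 3 of 5 preparations), Gad2 by -7.52 ± 8.1% (lower in 4 of 5) and Slc32a1 by 6.14 ± 10.5% (higher in 3 of 5), each mean smaller than or close to its SD. Slc12a5 changed by 15.1 ± 10.2% relative to the excitatory sum (higher in 5 of 5) and Gphn by 25.7 ± 11.6% (higher in 5 of 5), so that both fell by less than the marker sum did. Slc6a11 changed by -33.1 ± 5.98% relative to the astrocyte sum (lower in 5 of 5), against 10 of 12 astrocyte markers called higher. In the SP active component Gad1 changed by 9.27 ± 10.6% relative to the interneuron sum (higher in 5 of 5) and Slc32a1 by 1.24 ± 13.2% (higher in 3 of 5).

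**Figure D5:**
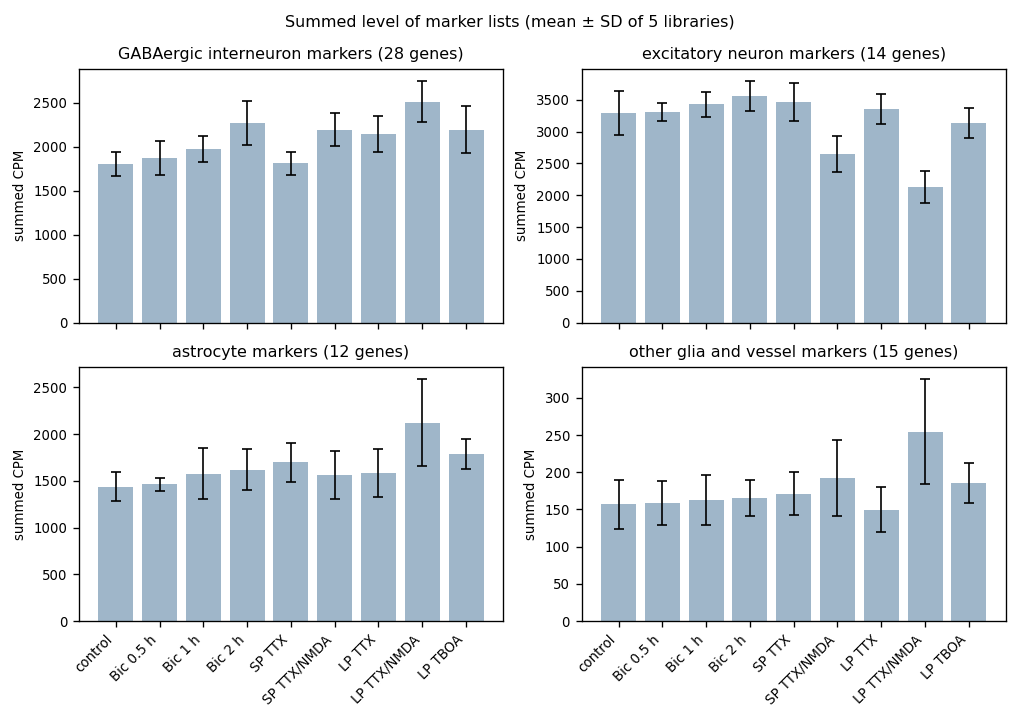
Summed CPM of the genes of 4 marker lists (panels) in each condition (horizontal axis); bars are means and error bars SDs of 5 libraries. Excitatory neuron markers are lowest in LP TTX/NMDA (2136 CPM), where the interneuron (2513 CPM) and astrocyte (2121 CPM) markers are highest.

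The genes whose levels were most like those of each of the 8 were found by Pearson's r over the 45 libraries, after the mean of each preparation was subtracted, among 13592 genes. These values are a description, since the libraries share preparations and conditions. The highest coefficients for Gad1 included those of Kcnip1 (r = 0.92) and Grik1 (0.92), for Gad2 Erbb4 (0.94), Rcan2 (0.93) and Gria4 (0.92), and for Slc32a1 Sst (0.91) and Chga (0.87). Erbb4 and Sst are among the interneuron markers above. For Slc12a5 they were Mapk8ip3 (0.97), Agap2 (0.97) and Grin1 (0.97), the last encoding the obligatory NMDA receptor subunit, for Gphn Cog5 (0.95) and Ate1 (0.95), and for Slc12a2 Usp37 (0.95), Uba6 (0.94) and Klhl7 (0.94). The coefficients were lower for Slc6a11, with Soga1 (0.88), Wdtc1 (0.88) and Celsr1 (0.88), and for Abat, with Dynll2 (0.87), Ptprt (0.86) and Atp6v1g2 (0.86). Between members, the highest coefficients were those of Gad1 and Gad2 (r = 0.91), Gad2 and Abat (0.80), Slc12a5 and Slc6a11 (0.79) and Slc12a5 and Gphn (0.76), the lowest that of Gad1 and Slc6a11 (-0.69), and Slc12a5 and Slc12a2 had 0.25.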

How the data were processed

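RNA-seq counts were taken as deposited. Per the labels and the study's methods, the authors demultiplexed reads with bcl2fastq 2.20.0.422, aligned them to GRCm38 with STAR 2.5.4b and counted reads of the sense strand per Ensembl gene with featureCounts 1.6.5, leaving out reads that mapped to several places or genes, so that the deposited values are raw counts, not normalized. Symbols came from the reference annotation (54409 of 54532 IDs matched). Counts were scaled by TMM and compared in edgeR 4.0.16 (R 4.3.3; quasi-likelihood test, Benjamini-Hochberg adjustment, genes with at least 1 read, only the libraries compared), with DESeq2 1.42.0, other scaling, edgeR's low-count filter, a single fit of all 45 libraries and the omission of each preparation as alternatives. The same culture preparation, by its number in the labels, gave a library to every condition, and same-numbered libraries deviated together (mean correlation of deviations over 50 pairs of libraries 0.456, range -0.195 to 0.726, 46 over 0.1). The members and lists were chosen with earlier results of these data known. All 8 genes were named in every comparison, and of each other list at most the 4 called genes of lowest adjusted p, and for likeness the 3 genes of highest r; some genes that this rule names are not reported here. Of 29 interneuron markers listed, 28 were in the count table under their symbol.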

Additional observations from a re-analysis of the deposited data

Results flagged for a closer look

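In 72 groups of 5 libraries (8 genes in 9 conditions), 3 held a library set apart from the others of its group by a gap larger than Dixon's 95% critical value, where chance gives about 1 in 20. Slc32a1 after 2 h Bic stood at 269 CPM in preparation 8, against 324 to 342 CPM in the other 4 preparations. Slc12a2 after 0.5 h Bic stood at 56.0 CPM in preparation 8, against 43.5 to 45.9 CPM in the others. Gphn after 1 h Bic stood at 114 CPM in preparation 6, against 98.5 to 102 CPM in the others. The call of Slc32a1 after 2 h Bic held without preparation 8.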

How the results depend on the processing

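Of 15 called values, 10 kept their call and direction in every alternative run, and 0 changed sign. Without a block, the Slc32a1 call in SP active was lost with the low-count filter (adjusted p = 0.0542) and in the fit of all 45 libraries (0.16), that of Slc12a5 in the latter (0.0588), Slc6a11 in SP total in both (0.0919 and 0.103), Slc32a1 in LP active with DESeq2 (0.0513) and Gad1 in LP total with DESeq2 (0.0714) and in the fit of all libraries (0.063); the cause was not tested. With the replicate block over all genes, the number of the 8 called was 6 after 2 h Bic, 5 in SP active, 5 in SP total, 5 in LP passive, 7 in LP active and 1 in spillover. It was 1 and 3 in the tests of LP minus SP (passive and active). That fit called 4893 of 30929 genes after 2 h Bic, 3103 of 32229 in SP active and 4351 of 31414 in SP total. It called 4772 of 31944 in LP passive, 10287 of 32852 in LP active and 1060 of 31706 in spillover. In LP minus SP it called 701 of 34313 (passive) and 4026 of 35027 (active). With the block and the low-count filter the number of the 8 was, in the same order, 5, 5, 5, 4, 7, 0, 1 and 3. The number of the 8 was 1 in SP active and 1 in SP total with all 45 libraries (1191 and 1157 of 37048 genes called). It was 1 in SP total with the filter (1482 of 15435) and 1 in LP passive with DESeq2's size factors (1491 of 31944). In the active LP minus SP it was 1 with DESeq2 (1660 of 35027). Leaving out each preparation gave 1 to 4 in SP total, where 801 to 2068 genes were called. In LP passive it gave 0 to 1, where 909 to 1647 genes were called. The block over all genes called Abat after 2 h Bic (adjusted p = 0.00247), Gad2 in LP passive (0.0141), Slc12a5 in spillover (0.0123), Slc32a1 in SP total and Gad2 in the active LP minus SP, which the block with the filter did not; that fit, and not the former, called Gphn in SP total and in the active LP minus SP. The 8 genes had at least 450 reads in every library, and the part of sequencing depth in the calls was not tested.

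Changes of sign occurred in 23 of 96 values, all with an adjusted p of at least 0.879 and a size of at most 0.18 on the log2 scale. Leaving out each preparation moved the log2 fold changes after 0.5 h Bic over -0.022 to 0.042 (Gad1), -0.055 to 0.074 (Slc6a11), -0.011 to 0.13 (Abat), -0.025 to 0.11 (Slc12a5) and -0.00038 to 0.055 (Gphn), after 1 h over -0.025 to 0.021 (Gad1), -0.015 to 0.074 (Gad2) and -0.032 to 0.047 (Gphn), and after 2 h over -0.028 to 0.046 (Slc6a11) and -0.050 to 0.0032 (Gphn). In SP passive the ranges were -0.20 to 0.014 (Gad1), -0.14 to 0.044 (Gad2), -0.052 to 0.027 (Slc12a2) and -0.024 to 0.025 (Gphn), in SP active -0.069 to 0.012 (Slc12a2), in LP total -0.0065 to 0.066 (Abat), and in spillover -0.020 to 0.091 (Gad1), -0.022 to 0.11 (Gad2), -0.075 to 0.017 (Abat) and -0.021 to 0.025 (Slc12a2). In LP minus SP they were -0.0051 to 0.25 (Gad1, passive), -0.034 to 0.033 (Abat, passive) and -0.020 to 0.068 (Slc32a1, active). Other alternatives turned the sign of Gad1 after 1 h Bic (0.0016 with DESeq2's size factors and with DESeq2, 0.00057 with all libraries), Gphn in SP passive (0.0017 with all libraries), Abat in LP total (-0.00030 with DESeq2's size factors, -0.00029 with DESeq2) and Abat in the passive LP minus SP (-0.0013 with the replicate block and the filter).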
